A study of Mus musculus with 10 samples.

Results

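The liver answers glucocorticoid hormones through a small set of well-known genes, and 7 of them were examined here: *Nr3c1*, which encodes the glucocorticoid receptor, *Hsd11b1*, which regenerates the active hormone inside the cell, the receptor targets *Fkbp5*, *Tsc22d3* and *Sgk1*, and the metallothioneins *Mt1* and *Mt2*. The genes were chosen by symbol, all 7 are among the 24052 gene symbols of the count tables, and all 7 passed the filter on low counts. The data are RNA sequencing counts from 10 livers, 5 of wild-type mice and 5 of Ndrg3 LKO mice, in which exon 4 of *Ndrg3* is deleted in the liver by Cre recombinase driven by the albumin promoter. Both groups are labelled C57BL/6 and were fed ad libitum, and the RNA came from the livers used for the metabolome, for which the methods state an age of 8 to 10 weeks and a legend states 10 to 12 weeks. The labels hold 5 Ndrg3 LKO livers, while the published legend to a gene expression heat map counts 4 and does not say which liver was left out. The albumin promoter acts in hepatocytes, so the other cells of the liver keep the gene, and the counts come from whole tissue. The controls are called wild-type littermates. The last cross described is between *Ndrg3* f/+; Alb-Cre and *Ndrg3* f/f mice, and whether the controls carried a floxed allele or Cre is not stated.

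Corticosterone, the main glucocorticoid of the mouse, circulates bound to a carrier globulin and enters hepatocytes, where it binds a receptor held ready by Hsp90 and its co-chaperones. The loaded receptor moves to the nucleus and switches on genes of amino acid breakdown, glucose production and negative feedback. Metallothioneins are small proteins rich in cysteine that bind zinc and copper. Their genes are switched on by zinc through the factor Mtf1, by glucocorticoids and by inflammation, and the liver is one of their main sites of expression.

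Total counts per library ran from 20872262 to 24747870 for wild-type and from 23474693 to 30450057 for Ndrg3 LKO livers. Levels are given as TMM-normalized CPM, that is, counts divided by library sizes adjusted by edgeR's TMM method. *Ndrg3* itself was at 15.9 to 21.9 CPM in wild-type and 7.07 to 9.16 CPM in Ndrg3 LKO livers, so the libraries matched their labels. Ndrg3 LKO replicate 5 stood apart from the other 4 livers of its group. On the first principal component, which held 68.7% of the variance, it lay at 14.1, wild-type livers lay between -49.9 and -43.1 and Ndrg3 LKO replicates 1 to 4 between 51.1 and 56.6. Its *Ndrg3* level was 1.03 times the mean of the other 4. Results are therefore given for all 10 livers and, for the 7 genes and most gene lists, for the 9 livers without it. For some genes beside the 7 the 9-liver value or the level in this liver is given. The others have only the 10-liver value. The hepatocyte markers that define the tissue were present in every liver, with a summed level of 134590 to 171160 CPM in wild-type livers, 33869 to 42752 in Ndrg3 LKO replicates 1 to 4 and 152790 in replicate 5.

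Of the 7 genes, 1 rose (*Sgk1*) and 2 fell (*Hsd11b1* and *Fkbp5*) in Ndrg3 LKO livers when all 10 livers were compared, and *Nr3c1*, *Tsc22d3*, *Mt1* and *Mt2* did not pass the test (edgeR's quasi-likelihood test, Benjamini-Hochberg adjusted p under 0.05 over 11208 genes). Change was common in these livers: 48.6% of all genes tested passed, with 25.6% of the genes tested higher and 23.0% lower in Ndrg3 LKO livers, so 3 of 7 is close to the background. When livers were scaled by library size alone, the split over all genes was 5821 higher and 1010 lower, against 2865 and 2578. That scaling moved the median over all genes from 0.03 to 0.56 on the log2 scale, and relative to this median *Sgk1* was at 4.29, *Hsd11b1* at -3.36 and *Fkbp5* at -2.66. Without Ndrg3 LKO replicate 5, *Mt1* and *Mt2* also fell, which made 5 of 7 against 55.3% of all genes (28.3% higher and 27.0% lower). The groups did not overlap for 3 of the 7 genes in 10 livers, against 31.5% of all genes, and for 5 of the 7 in 9 livers, against 44.3%.

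**Figure D1:**
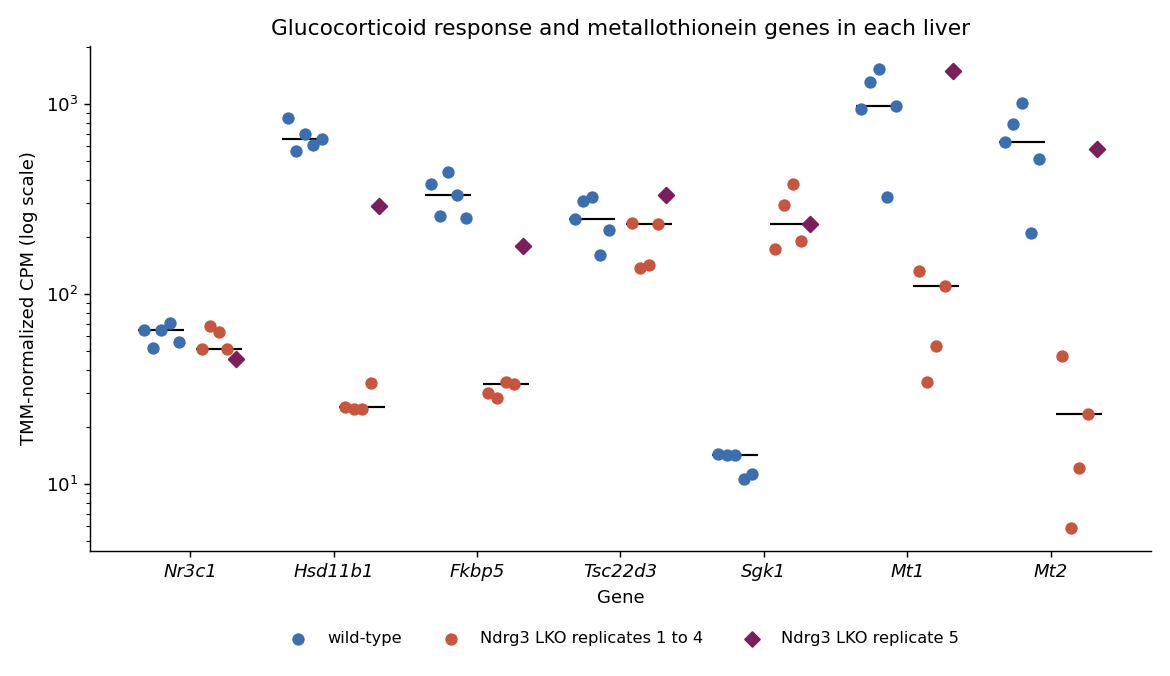
TMM-normalized CPM of the 7 genes on a log axis, with 1 point per liver, in replicate order from left to right within each group, and a bar at the median of each group of 5. *Hsd11b1*, *Fkbp5*, *Mt1* and *Mt2* are low in Ndrg3 LKO replicates 1 to 4, replicate 5 (diamond) lies above them in each of these 4 genes, and *Sgk1* is high in all 5 Ndrg3 LKO livers.

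*Nr3c1* (ENSMUSG00000024431.7), located at 39570199 to 39650955 of chromosome 18 (mm9, minus strand), encodes the glucocorticoid receptor, the factor through which the hormone acts on genes. Its level was 64.8, 52.1, 64.5, 70.5 and 55.8 CPM in wild-type replicates 1 to 5, and 51.6, 68.1, 62.8, 51.4 and 45.3 CPM in Ndrg3 LKO replicates 1 to 5. The groups overlapped, and Ndrg3 LKO replicate 5 was the lowest of the 10 livers. The log2 fold change was -0.14 with a 95% confidence interval from -0.44 to 0.16 (edgeR adjusted p = 0.426). Without Ndrg3 LKO replicate 5 it was -0.07, with an interval from -0.37 to 0.22. Library-size scaling gave 0.41 (edgeR adjusted p = 0.104, with a range of 0.104 to 0.703 over the 17 alternatives), and *Nr3c1* minus the all-gene median was -0.15 under that scaling and -0.17 under TMM. The mineralocorticoid receptor *Nr3c2*, which also binds corticosterone, was near the limit of the filter, with a mean of 1.99 CPM in wild-type livers and a log2 fold change of 0.33 (edgeR adjusted p = 0.638).

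*Hsd11b1* (ENSMUSG00000016194.8), on the minus strand of chromosome 1 from 195047824 to 195090248, encodes the reductase that turns the inactive keto form back into corticosterone. Wild-type replicates 1 to 5 had 847, 567, 697, 606 and 657 CPM, and Ndrg3 LKO replicates 1 to 5 had 25.4, 24.8, 25.0, 33.9 and 292 CPM. All 5 Ndrg3 LKO livers were under the lowest wild-type liver, with the first 4 within a narrow range and replicate 5 at 10.7 times their mean and 0.433 times the wild-type mean. *Hsd11b1* fell by 3.07 on the log2 scale (standard error 0.72, edgeR adjusted p = 0.00439). Without Ndrg3 LKO replicate 5 it fell by 4.63 (standard error 0.19, edgeR adjusted p = 3.50e-08), the lowest adjusted p of its 17 alternatives, of which the highest was 0.0126. The mean over the 4 livers was then 24.7-fold below the wild-type mean. The gene overlaps *1600010F14Rik* and *4930570N18Rik* on the opposite strand, and the strand setting of the counting is not given in the sources used here.

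Other genes of corticosteroid handling were lower as well. Of the 7 genes tested on this list, which holds *Hsd11b1* and *Nr3c1*, 4 fell, 0 rose and 3 did not pass the test, with a median log2 fold change of -1.10 against 0.03 for all genes. In 9 livers 5 fell, 0 rose and 2 did not pass (median -2.95). Without *Hsd11b1* and *Nr3c1*, 3 of 5 fell and 2 did not pass in 10 livers, and 4 fell and 1 did not pass in 9. Over all genes 23.0% were lower in 10 livers and 27.0% in 9. *Srd5a1*, a reductase that begins the inactivation of steroids, fell by 3.94 on the log2 scale (edgeR adjusted p = 3.20e-05), from 166 ± 20.8 CPM (SD, n = 5) in wild-type livers to 7.09 ± 1.43 CPM (SD, n = 4) in Ndrg3 LKO replicates 1 to 4 and 26.02 CPM in replicate 5. *Akr1d1*, the reductase that acts on the same double bond and also takes part in bile acid synthesis, fell by 3.60 (edgeR adjusted p = 0.00750), from 168 ± 51.5 CPM (SD, n = 5) to 3.18 ± 1.99 CPM (SD, n = 4) and 57.6 CPM in replicate 5. *Srd5a1* overlaps *Nsun2* on the opposite strand. For both reductases no Ndrg3 LKO liver reached the lowest wild-type liver, and in 9 livers *Srd5a1* fell by 4.55 and *Akr1d1* by 5.72. *H6pd*, whose product supplies Hsd11b1 with NADPH in the endoplasmic reticulum, fell by 1.10 (edgeR adjusted p = 0.00237), and the groups overlapped, with 219 to 440 CPM in wild-type and 126 to 233 CPM in Ndrg3 LKO livers. Unlike the reductases, *H6pd* was lowest in Ndrg3 LKO replicate 5.

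*Serpina6*, which encodes the corticosteroid-binding globulin that the liver secretes, differed in direction within the Ndrg3 LKO group. It had 265, 261, 283, 327 and 221 CPM in the wild-type livers and 62.1, 11.8, 27.2, 39.5 and 669 CPM in Ndrg3 LKO replicates 1 to 5. Replicates 1 to 4 lay below every wild-type liver and replicate 5 above every one of them. On the log2 scale this came to -0.75 (edgeR adjusted p = 0.50) with 10 livers and -2.95 (edgeR adjusted p = 6.72e-05) in 9, the extremes over the alternatives being 6.72e-05 and 0.683. *Hsd11b2*, the enzyme that inactivates corticosterone in the kidney, had 0 counts in all wild-type livers, where 3 counts correspond to between 0.121 and 0.144 CPM, and was not tested.

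The fall of *Hsd11b1* and of these reductases went with lower hepatocyte markers in Ndrg3 LKO replicates 1 to 4. In replicate 5 *Alb*, *Ttr*, *Ahsg* and *Serpina1a* were at 1.01 to 1.47 times the wild-type mean. *Apoa1*, *Apob* and *Fgb* were at 0.512 to 0.653 times that mean in the same liver. There *Hsd11b1* was at 0.433, *Akr1d1* at 0.343 and *Srd5a1* at 0.157 times the wild-type mean. In all 10 livers 5 of the 7 hepatocyte markers fell and 2 did not pass the test (median log2 fold change -1.24). Without Ndrg3 LKO replicate 5 all 7 fell (median -1.75). Over all genes 23.0% were lower in 10 livers and 27.0% in 9. The lowered markers included *Apoa1*, the main protein of high-density lipoprotein, at -2.34, *Fgb*, a fibrinogen chain, at -1.56 and *Apob*, the protein of very-low-density lipoprotein, at -1.30. In bulk tissue, fewer cells of a type and less RNA per cell cannot be told apart. In 9 livers *Hsd11b1* changed by -4.63 and the 7 markers by -3.54 to -0.62, so the markers give no single measure of hepatocyte content. The part of hepatocyte content in the result was not tested.

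*Fkbp5* (ENSMUSG00000024222.9), on the minus strand of chromosome 17 from 28536040 to 28654469, encodes a co-chaperone that lowers the receptor's affinity for the hormone and is itself induced by it. Wild-type replicates 1 to 5 had 381, 258, 439, 332 and 251 CPM, against 30.3, 28.5, 34.5, 33.7 and 179 CPM in Ndrg3 LKO replicates 1 to 5. The groups did not overlap, and replicate 5 lay at 5.65 times the mean of the other Ndrg3 LKO livers. *Fkbp5* fell by 2.44 on the log2 scale (standard error 0.52, edgeR adjusted p = 0.00258), and without Ndrg3 LKO replicate 5 it fell by 3.39 (standard error 0.20, edgeR adjusted p = 2.13e-07). All 17 alternatives passed the test, the highest adjusted p among them being 0.00793. A copy of *7SK* is annotated within the gene on the opposite strand.

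Most of the other chaperones of the receptor did not pass the test. On the list of 10 chaperones and coregulators, *Fkbp5* included, 1 rose, 2 fell and 7 did not pass the test, and the median log2 fold change was -0.35. In 9 livers 2 rose, 3 fell and 5 did not pass. Over all genes 48.6% passed in 10 livers and 55.3% in 9. *Ppid*, a cyclophilin of the Hsp90 complex, fell by 0.78 (edgeR adjusted p = 0.0183). *Stip1*, which passes clients from Hsp70 to Hsp90, rose by 0.31 (edgeR adjusted p = 0.0357) and passed the test in 8 of 17 alternatives. *Hsp90ab1*, the constitutive form of Hsp90, was at 1019 ± 119 CPM (SD, n = 5) in wild-type livers with a log2 fold change of 0.11. *Fkbp4*, the counterpart of *Fkbp5* in the complex, was at -0.03 (edgeR adjusted p = 0.875). With library-size scaling 4 of the 10 rose, 1 fell and 5 did not pass.

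*Tsc22d3* (ENSMUSG00000031431.7), on the minus strand of chromosome X from 137074067 to 137135198, encodes the leucine zipper protein GILZ, through which glucocorticoids damp inflammation. Its wild-type levels were 247, 309, 325, 161 and 216 CPM, and the Ndrg3 LKO livers had 237, 137, 143, 235 and 334 CPM. The ranges overlapped almost completely, with Ndrg3 LKO replicate 5 at the top of all 10 livers. The log2 fold change was -0.21, with a 95% confidence interval from -0.79 to 0.37 (edgeR adjusted p = 0.533). Leaving out Ndrg3 LKO replicate 5 gave -0.42, with an interval from -0.94 to 0.10 (edgeR adjusted p = 0.156, the lowest of the 17 alternatives, of which the highest was 0.806). Library-size scaling gave 0.26, and *Tsc22d3* minus the all-gene median was -0.29 under that scaling and -0.24 under TMM. The width of these intervals does not allow *Tsc22d3* to be called unchanged.

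*Sgk1* (ENSMUSG00000019970.9), on the plus strand of chromosome 10 from 21601990 to 21719709, encodes a kinase that glucocorticoids and mineralocorticoids induce and that acts on ion channels and transporters. It was low in wild-type livers, at 14.4, 14.2, 14.2, 10.7 and 11.4 CPM, and high in Ndrg3 LKO livers, at 172, 293, 380, 190 and 235 CPM. No Ndrg3 LKO liver came near a wild-type liver, and replicate 5 lay inside the range of the other 4, at 0.908 times their mean. *Sgk1* rose by 4.29 on the log2 scale (standard error 0.24, edgeR adjusted p = 8.98e-07), with a ratio of group means of 19.6. Without Ndrg3 LKO replicate 5 the rise was 4.32 (edgeR adjusted p = 1.65e-07), and it lay between 4.10 and 4.85 over all 17 alternatives. Of the 3 receptor targets, then, 1 fell, 1 rose and 1 was within its error.

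**Figure D2:**
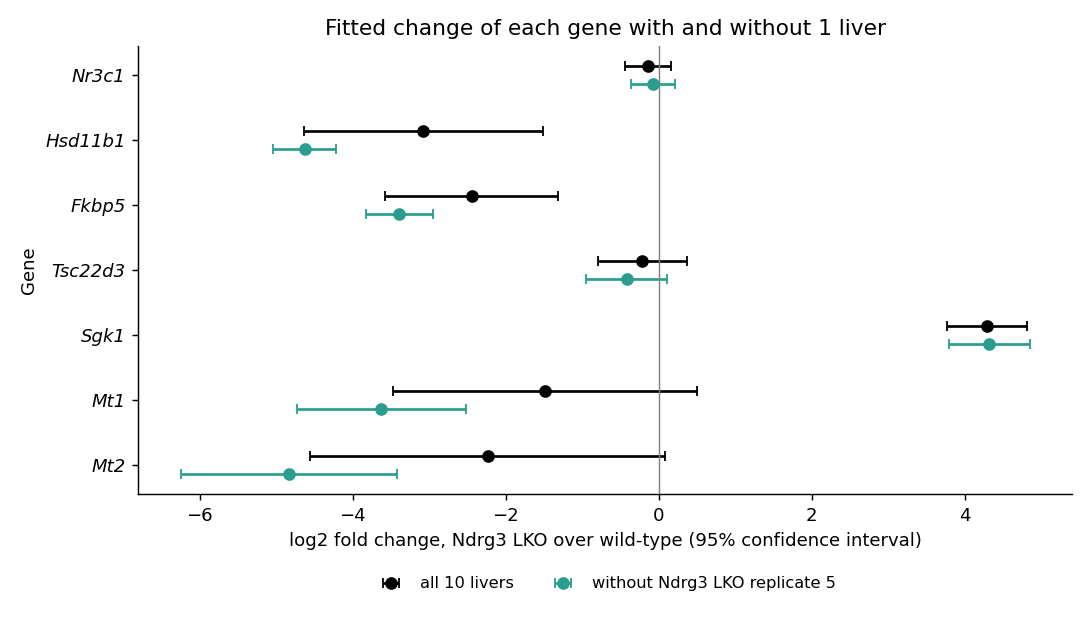
Log2 fold change of each gene in Ndrg3 LKO over wild-type livers with its 95% confidence interval, computed from the edgeR test. Values are for all 10 livers and for 9 livers without Ndrg3 LKO replicate 5. Leaving that liver out moves *Hsd11b1*, *Fkbp5*, *Mt1* and *Mt2* to lower values and narrows their intervals, and leaves *Sgk1* at 4.32.

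The wider set of genes known to be induced by glucocorticoids also moved in both directions. Of 26 such genes, with *Fkbp5*, *Tsc22d3*, *Sgk1*, *Mt1* and *Mt2* among them, 3 rose, 8 fell and 15 did not pass the test in 10 livers, and the median log2 fold change was -0.28. In 9 livers 3 rose, 12 fell and 11 did not pass. Without these 5 genes, 2 rose in 10 livers, 7 fell and 12 did not pass, which stands against 25.6% higher and 23.0% lower over all genes. Without them in 9 livers, 2 rose, 9 fell and 10 did not pass, against 28.3% higher and 27.0% lower over all genes. With library-size scaling, which moved all genes upward, the count over the 26 was 4 higher, 4 lower and 18 not passing, and the median relative to that of all genes was -0.31.

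Enzymes of amino acid breakdown gave the lowest values of this set outside the 7 genes. *Tdo2*, the first enzyme of tryptophan breakdown, had 2766 to 4344 CPM in wild-type livers and fell by 1.91 on the log2 scale (edgeR adjusted p = 0.00193), with 515 to 692 CPM in Ndrg3 LKO replicates 1 to 4 and 2083 CPM in replicate 5. *Tat*, tyrosine aminotransferase and a classic marker of the hepatic glucocorticoid response, fell by 1.78 (edgeR adjusted p = 0.0145), with 4605 to 7199 CPM in wild-type livers, 532 to 1466 CPM in replicates 1 to 4 and 5016 CPM in replicate 5. *Igfbp1*, a binding protein for insulin-like growth factors, fell by 1.33 (edgeR adjusted p = 0.00246). In 9 livers *Tdo2* fell by 2.51, *Tat* by 2.66 and *Igfbp1* by 1.48. Replicate 5 was the highest Ndrg3 LKO liver for all 3 genes and reached the wild-type range for *Tat*.

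Several other induced genes were within their error. The gluconeogenic enzymes *Pck1* and *G6pc* had log2 fold changes of -0.25 (edgeR adjusted p = 0.442) and -0.19 (edgeR adjusted p = 0.429), and the regulators *Zbtb16* and *Klf9* had 0.23 and -0.30, with edgeR adjusted p of 0.639 and 0.534. Smaller falls that passed the test were those of the transcription factors *Cebpd* at -0.97 and *Cebpb* at -0.89, of *Errfi1*, a feedback inhibitor of the EGF receptor, at -0.74 and of *Klf15*, a regulator of amino acid breakdown, at -0.55. In the same order, the 9-liver values of these 4 genes were -1.24, -1.16, -0.82 and -0.65. *Cebpd* and *Cebpb* passed narrowly (edgeR adjusted p = 0.0346 and 0.0479), with overlapping groups. They passed in 8 and 6 of the 17 alternatives, and *Errfi1* and *Klf15* in 16 each. The clock gene *Per1* rose by 1.23 (edgeR adjusted p = 0.000387) and the lipid transporter *Mfsd2a* by 0.77 (edgeR adjusted p = 0.00394), each with all 5 Ndrg3 LKO livers above all 5 wild-type livers.

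**Figure D3:**
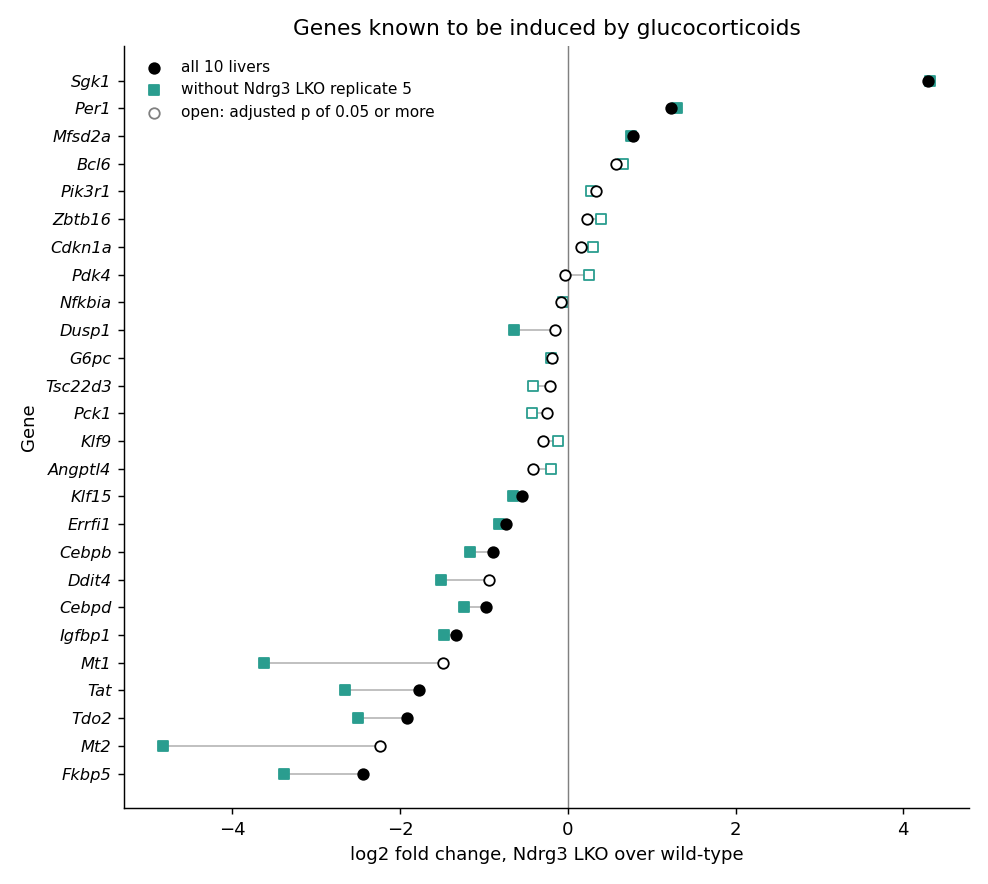
Log2 fold change of 26 genes known to be induced by glucocorticoids, ordered by their value in all 10 livers (circles), with the value without Ndrg3 LKO replicate 5 beside it (squares), filled where the edgeR adjusted p was under 0.05. *Sgk1* stands alone at the top at 4.29, and *Fkbp5*, *Mt2*, *Tdo2*, *Tat* and *Mt1* lie at the bottom, with *Mt1* and *Mt2* moving most when 1 liver is left out.

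Because corticosterone follows a daily cycle, the rhythm genes were read beside these results. Of 13 tested, 3 rose, 3 fell and 7 did not pass in 10 livers, and 3 rose, 4 fell and 6 did not pass in 9. The share of all genes that passed was 48.6% in 10 livers and 55.3% in 9. *Nr1d1*, the repressor that links the loops of the clock, rose by 3.28 on the log2 scale (edgeR adjusted p = 0.000302), from 11.4 ± 5.09 CPM (SD, n = 5) to 133 ± 38.5 CPM (SD, n = 4) in Ndrg3 LKO replicates 1 to 4 and 21.4 CPM in replicate 5. *Dbp*, an output factor of the clock, rose by 2.40 (edgeR adjusted p = 0.000772). It had 43.6 to 85.8 CPM in Ndrg3 LKO replicates 1 to 4 and 26.7 CPM in replicate 5. *Nr1d1* and *Dbp* overlap *Thra* and *Sphk2* on the opposite strand. The hour at which livers were taken is not given in the sources used here, and its part in the results was not tested.

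The metallothionein genes *Mt2* (ENSMUSG00000031762.6) and *Mt1* (ENSMUSG00000031765.6) lie side by side on the plus strand of chromosome 8, from 96696518 to 96697467 and from 96702989 to 96704225, with their starts 6471 bp apart. Both code for 61 amino acids, of which 20 are cysteines. The coding sequences are printed because the pair is told apart in the counts only by its differences, and the cysteine codons, the metal-binding residues, are in capitals.
Mt1 coding sequence: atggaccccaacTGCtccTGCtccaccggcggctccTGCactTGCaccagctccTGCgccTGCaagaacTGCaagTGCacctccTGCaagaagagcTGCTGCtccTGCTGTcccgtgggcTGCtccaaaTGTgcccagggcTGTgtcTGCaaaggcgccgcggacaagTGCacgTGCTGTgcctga
Mt2 coding sequence: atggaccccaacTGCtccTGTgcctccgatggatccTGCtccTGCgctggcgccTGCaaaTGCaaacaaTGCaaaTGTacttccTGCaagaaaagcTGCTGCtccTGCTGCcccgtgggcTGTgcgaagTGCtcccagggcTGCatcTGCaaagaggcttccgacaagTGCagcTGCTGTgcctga
The cysteine codons stand at the same places, and 148 of 186 coding positions, or 79.6%, are identical. The longest stretch shared by the annotated transcripts is 20 bases, against reads of 100 bp, so reads of the pair can be told apart. The sequences are those of NCBIM37, the assembly also called mm9, with the GENCODE transcripts.

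Because the pair moved together, the 250 bases before each first annotated start are shown as well, on the plus strand of mm9. Capitals mark cores of the metal response element, the site that Mtf1 binds, searched as TGCACNC and TGCGCNC on both strands.
Mt2, chr8:96696268-96696517: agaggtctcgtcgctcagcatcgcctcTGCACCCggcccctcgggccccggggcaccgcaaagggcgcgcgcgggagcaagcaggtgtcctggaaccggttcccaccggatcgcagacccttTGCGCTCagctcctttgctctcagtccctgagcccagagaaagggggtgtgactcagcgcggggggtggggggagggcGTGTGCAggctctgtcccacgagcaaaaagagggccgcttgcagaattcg
Mt1, chr8:96702739-96702988: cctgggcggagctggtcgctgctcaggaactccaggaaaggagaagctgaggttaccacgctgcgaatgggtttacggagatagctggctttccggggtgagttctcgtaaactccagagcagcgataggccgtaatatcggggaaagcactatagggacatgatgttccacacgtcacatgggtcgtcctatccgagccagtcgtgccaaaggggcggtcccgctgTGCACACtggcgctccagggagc
The *Mt2* window holds 3 such cores and the *Mt1* window 1. A second annotated start of *Mt1*, at 96703111, has 5 cores in the 250 bases before it. These bases overlap the window shown, and the core marked there is 1 of the 5. Of 46021 windows of this length before the starts of protein-coding transcripts, 25.0% hold at least 1 core, 1.68% hold 3 or more and 0.107% hold 5 or more. The *Mt1* window also has 1 match to ACANNNTGT, the core that the glucocorticoid receptor binds, at -92 to -84 from the start, which 4.79% of windows hold. The *Mt2* window has none, and 1 match to the antioxidant element TGACNNNGC at -79 to -71, which 10.5% of windows hold. The 250 bases before the second *Mt1* start hold 1 match to ACANNNTGT, which is the same site, and 1 to TGACNNNGC. These are matches of letters, and binding was not measured.

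*Mt1* had 942, 1313, 1532, 324 and 974 CPM in wild-type replicates 1 to 5 and 132, 34.5, 53.1, 110 and 1488 CPM in Ndrg3 LKO replicates 1 to 5. Ndrg3 LKO replicates 1 to 4 lay below every wild-type liver, while replicate 5, at 18.1 times their mean, lay above 4 of the 5 wild-type livers. In the comparison of 10 livers it stood at -1.49 on the log2 scale (standard error 0.91, 95% confidence interval from -3.47 to 0.50, edgeR adjusted p = 0.194). The permutation test of the mean log2(CPM + 1), exact and 2-sided, gave p = 0.0397 before adjustment. Without Ndrg3 LKO replicate 5 *Mt1* fell by 3.63 (standard error 0.51, edgeR adjusted p = 0.000108, the lowest of the 17 alternatives, of which the highest was 0.318), and the mean of the 4 livers was 12.4-fold below the wild-type mean.

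*Mt2* followed *Mt1* from liver to liver. It had 631, 790, 1013, 211 and 514 CPM in wild-type livers and 47.4, 5.89, 12.2, 23.3 and 583 CPM in Ndrg3 LKO livers. Replicate 5 again sat within the wild-type range, at 26.3 times the mean of the other Ndrg3 LKO livers, and wild-type replicate 4 was the lowest of its group for both genes. With 10 livers *Mt2* stood at -2.23 on the log2 scale (standard error 1.07, 95% confidence interval from -4.55 to 0.08, edgeR adjusted p = 0.100, exact permutation p = 0.0238). In 9 livers *Mt2* fell by 4.83 (standard error 0.65, edgeR adjusted p = 8.20e-05, the lowest of the 17 alternatives, of which the highest was 0.182), with the 4 livers 28.5-fold below the wild-type mean. Over all 10 livers limma on log2(CPM + 1) put *Mt1* at -2.76 (limma adjusted p = 0.0159) and *Mt2* at -3.95 (limma adjusted p = 0.00511), so whether the pair passed the test turned on the model and on 1 liver.

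The balance between the genes shifted in every Ndrg3 LKO liver. The ratio of *Mt1* to *Mt2* counts was 1.49, 1.66, 1.51, 1.54 and 1.90 in wild-type livers and 2.78, 5.86, 4.34, 4.72 and 2.55 in Ndrg3 LKO livers, so each Ndrg3 LKO liver, replicate 5 included, lay above each wild-type liver. The difference of mean log2 ratios was 1.26 (exact permutation test, 2-sided, p = 0.00794, which no comparison of 5 with 5 can go below). It was 1.41 without Ndrg3 LKO replicate 5, and between 1.11 and 1.41 whichever liver was left out. A ratio within a liver does not depend on the scaling between livers, and it shows unequal change of the pair, not which of them moved.

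**Figure D4:**
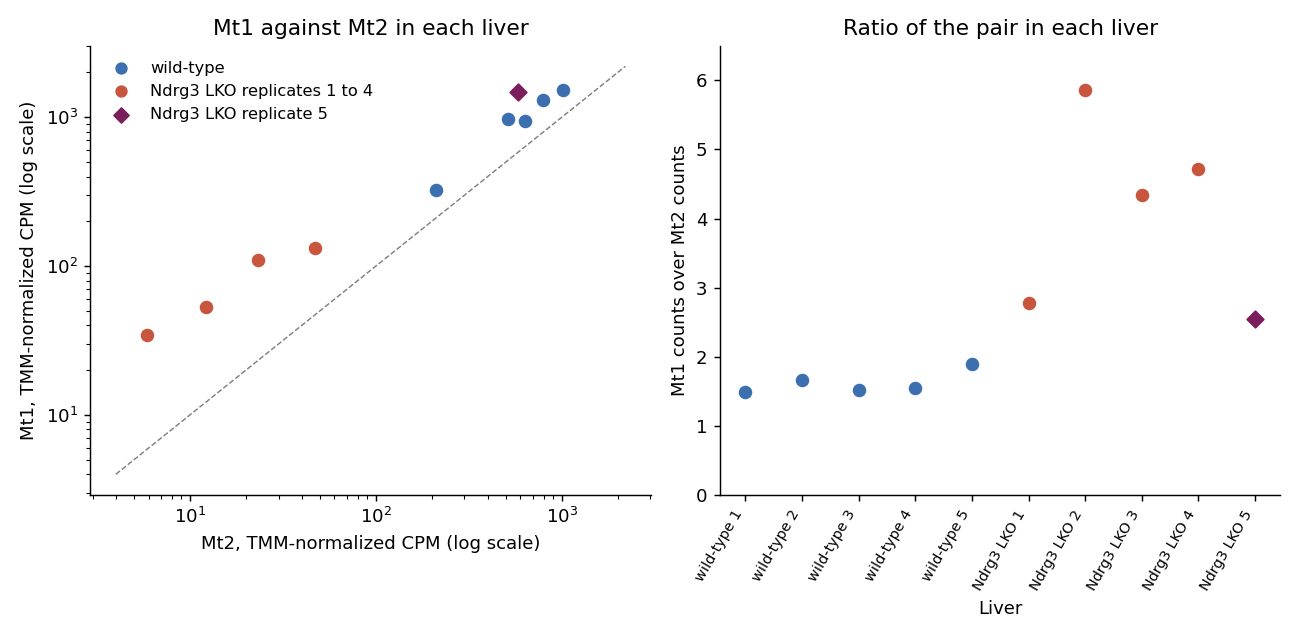
Left, *Mt1* against *Mt2* in TMM-normalized CPM on log axes, 1 point per liver, with a dashed line where both are equal. Right, the ratio of *Mt1* to *Mt2* counts in each liver, which is 1.49 to 1.90 in wild-type and 2.55 to 5.86 in Ndrg3 LKO livers.

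Compared per length of exons, *Mt1* and *Mt2* were the most abundant of the 7 genes in wild-type livers, at 1351 ± 609 and 1136 ± 541 CPM per kb (SD, n = 5), and these ranges overlapped. *Hsd11b1* came next at 249 ± 40.0 CPM per kb. *Tsc22d3* at 57.9 ± 15.5 and *Fkbp5* at 52.6 ± 12.7 CPM per kb did not differ beyond their spread. *Nr3c1* followed at 8.29 ± 1.0 and *Sgk1* was lowest at 2.64 ± 0.367 CPM per kb. In Ndrg3 LKO replicates 1 to 4 the order was different. *Mt1* was at 109 ± 61.1 CPM per kb (SD, n = 4), *Sgk1* at 52.8 ± 19.7, *Tsc22d3* at 43.3 ± 12.8 and *Mt2* at 39.9 ± 32.8, with overlapping ranges. *Hsd11b1* at 10.1 ± 1.64, *Nr3c1* at 7.88 ± 1.12 and *Fkbp5* at 5.02 ± 0.452 CPM per kb were the lowest, and the range of *Nr3c1* reached just above the lowest value of *Hsd11b1*. Replicate 5 kept the wild-type order apart from *Sgk1*, which at 47.9 CPM per kb lay above *Fkbp5* and *Nr3c1*.

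Among the partners of the metallothioneins, several zinc transporters were lowered while *Mtf1*, the zinc-sensing factor that drives *Mt1* and *Mt2*, was within its error. *Mtf1* had a log2 fold change of -0.28 with a 95% confidence interval from -0.58 to 0.03 (edgeR adjusted p = 0.123). Of 22 genes of zinc transport and metal response that were tested, *Mt1* and *Mt2* included, 2 rose, 7 fell and 13 did not pass in 10 livers, and 2 rose, 10 fell and 10 did not pass in 9. Over all genes 25.6% were higher and 23.0% lower in 10 livers, and 28.3% higher and 27.0% lower in 9. In total 48.6% of all genes passed in 10 livers and 55.3% in 9. *Slc30a1*, the zinc exporter of the plasma membrane and itself a target of Mtf1, had 68.0, 63.2, 88.0, 50.9 and 67.1 CPM in wild-type livers and 26.3, 22.6, 17.3, 27.1 and 23.9 CPM in Ndrg3 LKO livers. The groups did not overlap and Ndrg3 LKO replicate 5 lay among the other 4, unlike its metallothionein levels. *Slc30a1* fell by 1.52 on the log2 scale (standard error 0.17, edgeR adjusted p = 4.26e-05). *Mtf1* and *Slc30a1* overlap *1110065P20Rik* and *1700034H15Rik* on the opposite strand.

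*Slc39a4*, a zinc importer, fell by 1.82 (edgeR adjusted p = 0.00457), and *Slc30a10*, a manganese exporter of the same family, fell by 1.57 (edgeR adjusted p = 0.00193). For *Slc39a4*, replicate 5 was at 24.3 CPM against 3.65 to 11.5 CPM in the other Ndrg3 LKO livers. The genes that rose were the importer *Slc39a3*, at 1.02, and *Slc39a7*, which releases zinc from the endoplasmic reticulum, at 0.51. *Slc39a14*, the importer that brings zinc into the liver during inflammation, was at -0.18 (edgeR adjusted p = 0.318). *Mt3* and *Mt4*, the brain and epithelial metallothioneins, had wild-type means of 0.0112 and 0.00977 CPM and were not tested. Under library-size scaling the list had 8 higher, 3 lower and 11 not passing, and its median relative to that of all genes was -0.31. *Slc30a1*, *Slc39a4* and *Slc30a10* passed the test in the same direction in all 17 alternatives.

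**Figure D5:**
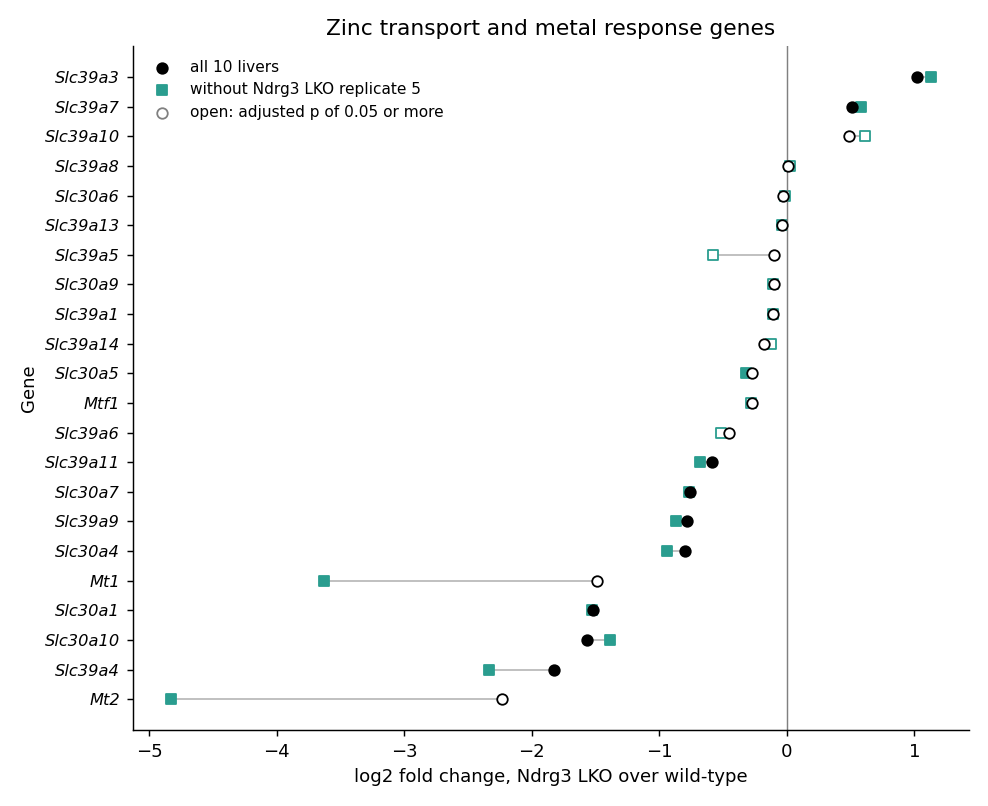
Log2 fold change of the 22 zinc transport and metal response genes tested, ordered by their value in all 10 livers (circles), with the value without Ndrg3 LKO replicate 5 beside it (squares), filled where the edgeR adjusted p was under 0.05. *Slc30a1*, *Slc30a10* and *Slc39a4* are filled in both fits, and *Mt1* and *Mt2* only without replicate 5.

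Genes of copper handling, the other metal that metallothioneins bind, were read in the same way. Of 10 tested, 1 rose, 3 fell and 6 did not pass, both in 10 and in 9 livers. Over all genes 48.6% passed in 10 livers and 55.3% in 9. The median log2 fold change of the list in 10 livers was 0.23. *Ccs*, the chaperone that loads copper onto *Sod1*, fell by 0.78 and *Cp*, which encodes the copper-carrying plasma protein ceruloplasmin, fell by 0.74, with edgeR adjusted p of 0.00754 and 0.00837. *Commd1*, a factor of copper export, rose by 0.68 (edgeR adjusted p = 0.00758). Under library-size scaling 5 of the 10 rose and 0 fell.

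Inflammation also drives metallothioneins in the liver, and acute phase genes were among those that fell. The list of 11 tested also holds the signalling genes *Il6ra*, *Il6st*, *Stat3* and *Socs3*. Of the 11, 0 rose, 5 fell, *Il6ra* at -1.44 among them, and 6 did not pass. Over all genes 25.6% were higher and 23.0% lower, and the median log2 fold change of the list was -1.14. In 9 livers 1 rose (*Il6st*, at 0.50), 7 fell and 3 did not pass, against 28.3% higher and 27.0% lower over all genes. With library-size scaling 1 was higher and 4 were lower. *Orm1*, an acid glycoprotein induced by glucocorticoids and interleukins together, fell by 4.59 on the log2 scale (edgeR adjusted p = 0.00372), from 830 to 1461 CPM in wild-type livers to 1.77 to 34.5 CPM in Ndrg3 LKO replicates 1 to 4 and 187 CPM in replicate 5, and in 9 livers it fell by 6.41. *Saa1* and *Saa2*, near-identical serum amyloid genes whose reads may be shared, fell by 3.42 and 3.99 (edgeR adjusted p = 0.00788 and 0.0180). Their wild-type livers spanned 157 to 2547 and 25.9 to 1062 CPM, and the highest value of each was in wild-type replicate 2. Without that liver the log2 fold changes were -1.99 for *Saa1* and -1.76 for *Saa2*. Over the 17 alternatives 16 passed for *Saa1* and 15 for *Saa2*, with highest adjusted p of 0.0537 and 0.112. The part of inflammation in the metallothionein levels was not tested.

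Markers of other liver cells were higher in Ndrg3 LKO livers. All 7 Kupffer cell and macrophage markers rose, with a summed level of 58.1 to 140 CPM in wild-type livers, 138 to 436 CPM in Ndrg3 LKO replicates 1 to 4 and 167 CPM in replicate 5. The scavenger receptor *Marco* rose by 4.30, as far as *Sgk1*, with 39.5 CPM in replicate 5. Of the endothelial markers 5 of 6 rose (sums of 49.3 to 63.8, 104 to 140 and 99.0 CPM in the same order of livers), and of the stellate cell and fibroblast markers 5 of 7 rose (112 to 177, 239 to 311 and 241 CPM). Of the 4 biliary markers 0 rose and 1 fell. Over all genes 25.6% were higher and 23.0% lower. In 9 livers the macrophage, endothelial and stellate counts were the same, and 1 biliary marker rose and 1 fell. Over all genes 28.3% were then higher and 27.0% lower. Lymphocyte markers summed to at most 1.73 CPM in wild-type livers, 4.801 CPM in Ndrg3 LKO replicates 1 to 4 and 6.55 CPM in replicate 5, and neutrophil markers to at most 1.29, 4.77 and 12.7 CPM, and 0 of either passed the filter. The globin genes of the blood list were at 0 in all livers and check nothing, and *Alas2*, the heme synthesis enzyme of red cells, fell by 3.19. The part of these cells in the rise of *Sgk1* was not tested.

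For each of the 7 genes, the 2 genes outside the 7 with the nearest profile over the 10 livers were found. The measure was the root mean square distance between profiles of log2(CPM + 1) centred on their own mean, so absolute levels were not compared. For *Hsd11b1* they were *Ido2* and *Car5a*, at distances of 0.257 and 0.296, and for *Fkbp5* *Slc10a2* and *Cyp2a12*, at 0.257 and 0.261. For *Sgk1* they were *Fst*, at 0.220, and *Gucy2c*, at 0.464. *Car5a* and *Slc10a2* had means of 0.998 and 0.314 CPM in Ndrg3 LKO replicates 1 to 4, and *Gucy2c* 0.413 CPM in wild-type livers. At such levels the added 1 compresses differences. The log2 fold change was -3.82 for *Slc10a2* against -2.44 for *Fkbp5*, and 5.72 for *Gucy2c* against 4.29 for *Sgk1*. For *Mt1* they were *Ces1b*, at 0.627, and *Serpina6*, at 0.704, and for *Mt2* they were *Tm7sf2* and *Ces1e*, at 0.679 and 0.810. The distance between *Mt1* and *Mt2* was 0.666, so that each was closer to the other than to the second of these genes, and *Mt2* was closer to *Mt1* than to either of its own. For *Nr3c1* they were *Supt16* and *Ubxn4*, at 0.0755 and 0.0813, and for *Tsc22d3* *Ndnl2* and *Caml*, at 0.0968 and 0.167. Among the 7 genes themselves, *Fkbp5* was closer to *Hsd11b1*, at 0.631, than to the other receptor targets *Tsc22d3* and *Sgk1*, at 1.42 and 3.57.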

How the data were processed

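RNA of 10 livers was sequenced by the authors as stranded mRNA libraries with 100 bp paired-end reads, mapped to mm9 with STAR and counted per gene. The deposited values are raw counts, as whole numbers with totals that differ between livers, although the files are named for CPM, and 1 library is from 1 liver. The annotation and strand setting of the counting are not given in the sources used here. The submitters' processing notes name STAR 2.7.3a, Trim Galore 0.6.4 and Cufflinks 2.2.1.

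Counts were analysed with edgeR 4.0.16 in R 4.3.3 after TMM adjustment. The quasi-likelihood test was run on genes that reached 1 CPM in 5 or more livers, with Benjamini-Hochberg adjustment at 0.05. Ratios of counts and mean log2(CPM + 1) were tested by exact 2-sided permutation over 252 splits of 10 livers or 126 of 9. Standard errors were computed from the edgeR fold change and its F statistic, and 95% intervals from these with the t distribution. The intervals are for the fitted mean log2 fold change, given the variation between livers. They do not give the range of single livers. At these depths 3 counts, the smallest signal taken, correspond to between 0.0985 and 0.144 CPM, counting error only. Alternatives used DESeq2 1.42.0, limma 3.58.1, other scalings and filters, a block and each liver left out. The tests were checked on simulated counts. All 20 within-group pairs of livers differed beyond sampling noise, so none is a library deposited again. Of the 24052 symbols, 20945 were located in the GENCODE annotation of NCBIM37, from which sequences and motif matches were taken.

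The 7 genes and all gene lists were chosen with earlier results of these data known. Beside the 7 genes, *Ndrg3*, *Mtf1*, *Nr3c2*, *Hsd11b2*, *H6pd* and *Serpina6*, up to 3 genes per list were named by the size of their change, among genes that passed the test with a mean of at least 5 CPM in the higher group. The 2 genes with the nearest profile, the 7 left out, were named for each of the 7. Further genes of the lists were picked for mention once their values were known.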

Additional observations from a re-analysis of the deposited data

Results flagged for a closer look

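In groups of 5 livers, the gap between the highest or lowest liver and its neighbour was set against the range of the group by Dixon's test. Chance alone marks about 1 in 20 groups, and 14 of 90 groups were marked here. In 11 of them Ndrg3 LKO replicate 5 was the high liver. The share of the range taken by this gap was 0.966 for *Hsd11b1*, 0.960 for *Fkbp5*, 0.933 for *Mt1* and 0.928 for *Mt2*. For the other genes of steroid handling it was 0.923 for *Serpina6*, 0.849 for *Srd5a1* and 0.923 for *Akr1d1*. It was 0.887 for *Tdo2*, 0.792 for *Tat*, 0.824 for *Orm1* and 0.879 for *Apoa1*. *Sgk1*, *Nr3c1* and *Tsc22d3* were not marked. Replicate 5 lay inside the range of the other Ndrg3 LKO livers for *Sgk1*, below it for *Nr3c1* and above it for *Tsc22d3*.

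In wild-type livers the highest liver was set apart for *Saa2* (0.913) and *Saa1* (0.847), both in replicate 2, and for *Stip1* (0.753), in replicate 3.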

How the results depend on the processing

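*Hsd11b1*, *Fkbp5* and *Sgk1* kept their direction and passed the test in all 17 alternatives. With library-size scaling, which moved the median of all genes to 0.56, the log2 fold changes of *Nr3c1* and *Tsc22d3* changed sign, to 0.41 and 0.26, and neither passed; relative to that median they were at -0.15 and -0.29, against -0.17 and -0.24 with TMM. *Mt1* passed the test with limma at -2.76 and with the replicate block at -2.87, and *Mt2* at -3.95 and -4.18, so that 5 of the 7 genes passed under limma and 5 under the block. With each liver left out in turn, *Mt1* ranged from -3.63 to -1.19, *Mt2* from -4.83 to -1.93 and the number of the 7 genes that passed from 3 to 5, the extremes of -3.63, -4.83 and 5 all being without Ndrg3 LKO replicate 5. At an adjusted p under 0.01, 3543 genes passed in place of 5443. The replicate numbers do not pair the livers: the deviations of same-numbered livers correlated between -0.357 and 0.036 across genes, no liver correlated best with its own number, and the block left 4412 genes. Each of the 7 genes had at least 191 counts in every liver.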
